A study of Homo sapiens with 6 samples.

Results

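UGCG, which encodes the enzyme that adds glucose to ceramide, had the largest difference in RNA of 10 genes of sphingolipid synthesis in U87 cells with an shRNA against PRMT6. Its level was 133, 132 and 128 CPM (read counts scaled to the size of the library) in the 3 control libraries and 35.7, 40.5 and 37.8 CPM in the 3 shPRMT6 libraries. The 10 genes are UGCG, SPTLC1, SPTLC2, CERS2, CERS5, CERS6, B4GALT5, ST3GAL5, ASAH1 and SPHK1, of the 60612 genes in the table. UGCG was picked because its RNA was far lower in the shPRMT6 libraries, so its difference is given as a description without a test. The other 9 were picked for their place in the pathway, with earlier results of these data known.

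U87 is an established line of human glioblastoma cells, and PRMT6 is an arginine methyltransferase that modifies histones and other proteins. The NC group is U87 cells given a lentivirus with a scramble shRNA, and the shPRMT6 group is U87 cells given a lentivirus with an shRNA against PRMT6. The cells of both groups were grown in DMEM with fetal bovine serum. Each group has 3 libraries, called independent replicates in the methods, and the comparison asks which RNAs differ when PRMT6 is lowered. Of 3 PRMT6 hairpins listed for the study, the sources do not say which was sequenced. The titles of the shPRMT6 libraries end in shRNA-1 to shRNA-3. These numbers were taken as replicate numbers, though they could also stand for 3 different hairpins. All cells are of 1 line. In such bulk samples, fewer cells of a type and less RNA per cell cannot be told apart.

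Sphingolipids are membrane lipids built on a sphingoid base. Serine palmitoyltransferase makes the first intermediate at the endoplasmic reticulum, ceramide synthases join a fatty acid to the base, and the resulting ceramide goes on to sphingomyelin, to glucosylceramide or to galactosylceramide. Glucosylceramide becomes lactosylceramide and then the gangliosides and globosides, families of surface glycolipids for which brain and brain tumours are known. Breakdown returns ceramide, ceramidases release sphingosine from it, and sphingosine kinases turn that into sphingosine 1-phosphate, a ligand of its own receptors.

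PRMT6 itself was 9.33, 7.97 and 7.19 CPM in NC and 3.57, 4.58 and 5.24 CPM in shPRMT6. The groups did not overlap, and PRMT6 fell (log2 fold change -0.87, SE 0.187, adjusted p = 0.0225, edgeR's quasi-likelihood test adjusted by Benjamini-Hochberg). The call was lost when NC replicate 1 or either of shPRMT6 replicates 1 and 2 was left out (-0.77, -0.73 and -0.89). Library totals ran from 56388161 to 75887696 counts. All 4 mesenchymal genes checked (VIM, CD44, FN1, TNC) were above 1 CPM, with summed levels of 13913 to 14439 CPM in NC and 11592 to 12375 CPM in shPRMT6. In the same edgeR test FN1 (-0.72, adjusted p = 0.00246) and TNC (-0.35, adjusted p = 0.00585) fell. VIM (-0.11, adjusted p = 0.356) and CD44 (-0.12, adjusted p = 0.672) did not pass it. Of 5 glial and stem-like genes, NES and OLIG2 were above 1 CPM (summed list 41.0 to 45.7 CPM in NC and 48.1 to 49.4 CPM in shPRMT6), GFAP and SOX2 were below it, and S100B was at 0. CDKN2A, CDKN2B and MTAP, which lie in the stretch deleted from U87, summed to at most 0.456 CPM in any library. Of 9 genes of other cell types, PECAM1, SNAP25 and MBP were above 1 CPM (summed list 24.6 to 25.8 CPM in NC and 25.9 to 26.99 CPM in shPRMT6), KRT5 was at 0 and PTPRC, CD14 and CDH5 were near 0. The part of these markers in the results was not tested.

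UGCG lies on chromosome 9 at 111896766 to 111935369, plus strand (GRCh38, GENCODE 29). No exon of another gene overlaps its exons, and none of its 75-base stretches recurs in another gene. The bases just before its start are printed beside those of B4GALT5, the gene of the next step of the route, since both enzymes make the first sugar transfers and only UGCG RNA differed widely between groups. Capitals mark GC boxes (GGGCGG on either strand, CCGCCC when read on the other), the motif known for binding SP1. The sequences are from RefSeq on GRCh38.p14, read on the strand of the gene, UGCG at chr9:111896564-111896765 (plus) and B4GALT5 at chr20:49713879-49714128 (minus).
UGCG: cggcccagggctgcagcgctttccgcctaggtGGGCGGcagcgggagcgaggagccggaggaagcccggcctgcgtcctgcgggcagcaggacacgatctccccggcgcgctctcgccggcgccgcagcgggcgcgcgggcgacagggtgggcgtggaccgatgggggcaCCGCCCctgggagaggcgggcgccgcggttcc
B4GALT5: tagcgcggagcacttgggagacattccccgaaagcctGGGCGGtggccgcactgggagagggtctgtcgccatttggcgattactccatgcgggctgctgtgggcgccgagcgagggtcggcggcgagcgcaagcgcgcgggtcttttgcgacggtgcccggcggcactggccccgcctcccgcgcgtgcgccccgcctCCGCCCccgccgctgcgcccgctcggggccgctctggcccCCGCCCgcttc
The stretch of UGCG holds 2 such boxes in 202 bases, since its window was cut at the GENCODE gene start, and that of B4GALT5 holds 3 in 250 bases, so the numbers are not for equal lengths. Of the 10 genes, 8 had an uncut 250-base window before the RefSeq start and all 8 held at least 1 box, as did 54 of 59 pathway genes with a window and 46.2% of 27305 genes. The 27305 genes were not limited to those with counts in these libraries, and the difference between the lists was not tested. A match is a description of letters, not of a bound site.

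The counts behind the UGCG levels were 7432, 10038 and 8013 in NC and 2270, 2494 and 2563 in shPRMT6. All 3 shPRMT6 libraries lay far below all 3 NC libraries, and libraries of a group differed little. The mean was 131 ± 2.40 CPM in NC and 38.01 ± 2.44 CPM in shPRMT6 (SD, n = 3), so that 28.99% of the NC level was left, a log2 fold change of -1.79 (SE 0.0691). Leaving out each library in turn gave log2 fold changes from -1.83 to -1.74. Of 9527 genes with a mean of at least 10 CPM, 12 had a lower log2 fold change. Among all 18106 genes tested, UGCG was at rank 190 from the lowest log2 fold change. The log2 fold change of UGCG was further from 0 than that of PRMT6, the targeted gene, and this difference was not tested.

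**Figure D1:**
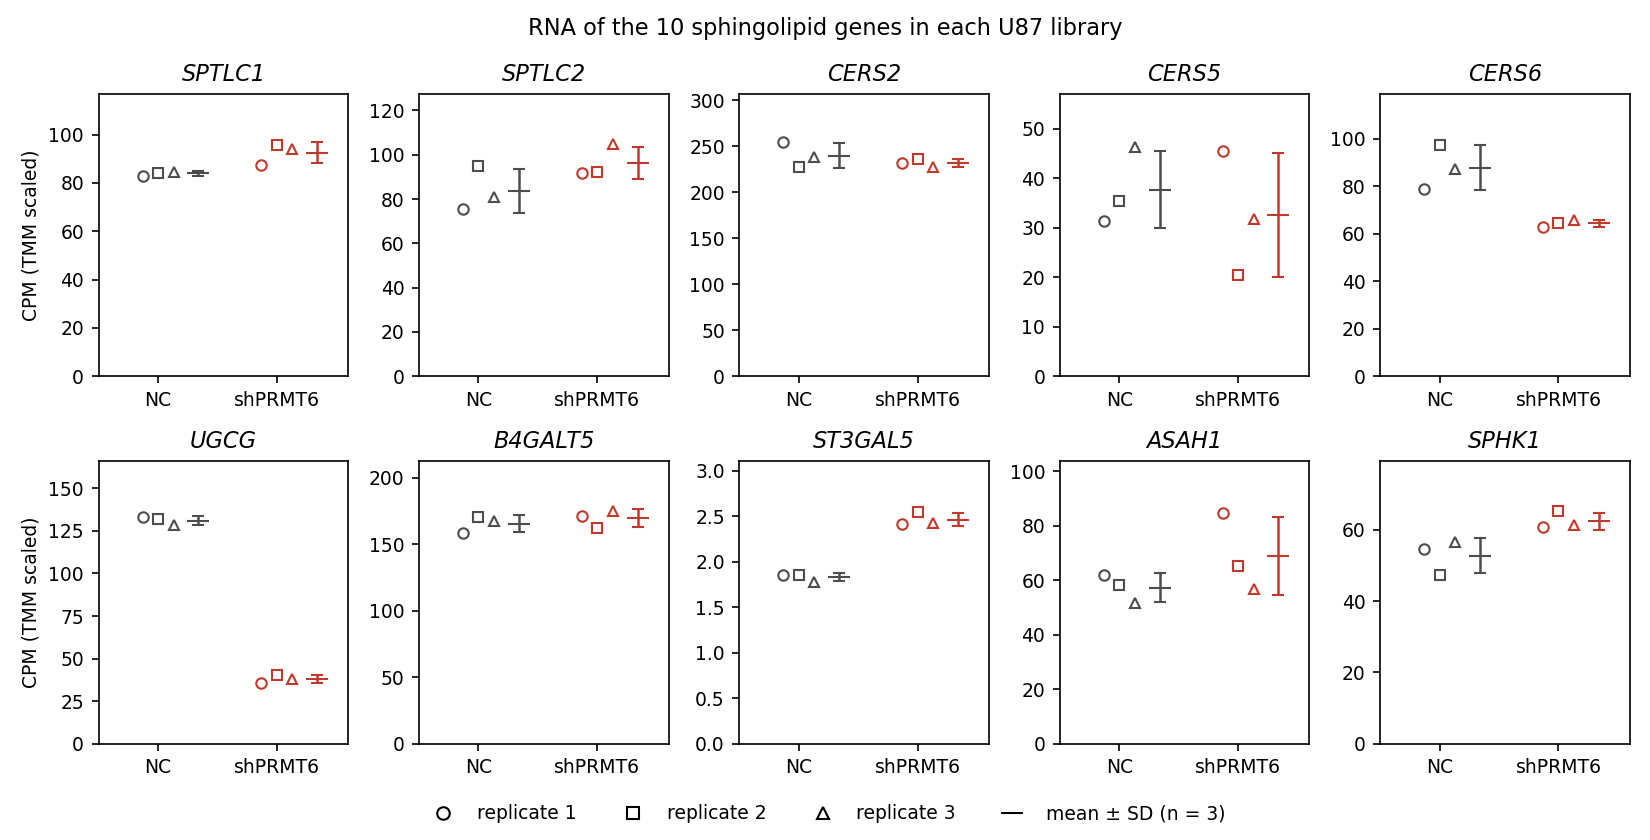
The 10 genes in the 3 NC (grey) and 3 shPRMT6 (red) libraries, in CPM after TMM scaling on axes that start at 0. Points are libraries, and the lines beside them are the mean ± SD (n = 3). UGCG lies at 28.99% of its NC level, CERS6 is the only one of the 9 genes tested here that passed the threshold of the edgeR fit, and SPTLC1, ST3GAL5 and SPHK1 lie higher without overlap.

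Of the 9 genes other than UGCG, all passed the filter on low counts, 0 rose and 1 fell (CERS6) at an adjusted p under 0.05. Among all 18106 genes tested, 9.51% rose and 9.06% fell. At an unadjusted p under 0.05 the counts were 2 higher and 1 lower, and DESeq2 called 2 higher (SPHK1 and SPTLC1) and 1 lower. Groups did not overlap in 3 genes that were higher (SPTLC1, ST3GAL5, SPHK1) and 1 that was lower (CERS6), against 20.3% of all genes higher and 19.9% lower. The median log2 fold change of the 9 genes was 0.14, beside -0.013 over all genes tested.

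The entry step is made by SPTLC1 and SPTLC2, subunits of serine palmitoyltransferase. SPTLC1, which every form of the enzyme contains, was 82.9, 84.3 and 84.6 CPM in NC and 87.5, 95.8 and 93.9 CPM in shPRMT6. The shPRMT6 libraries were all above the NC libraries, by 1.10-fold in the mean, and the difference did not pass the test (log2 fold change 0.14, SE 0.0601, adjusted p = 0.165). SPTLC2, a catalytic subunit, was 75.5, 94.8 and 80.9 CPM in NC and 91.8, 92.3 and 104.8 CPM in shPRMT6. NC replicate 2 lay among the shPRMT6 libraries, so the groups overlapped (0.20, SE 0.104, adjusted p = 0.232).

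SPTLC3, the alternative catalytic subunit known for making other chain lengths of base, was 39.7, 42.7 and 38.8 CPM in NC and 68.2, 70.7 and 70.2 CPM in shPRMT6. It rose 1.73-fold with a wide gap between the groups (log2 fold change 0.79, SE 0.0667, adjusted p = 0.00118). FPKM values are scaled to library size and to a length set for each gene, so levels of different genes compare only as far as that length is right. On this scale SPTLC3 made up 33.8% ± 1.73 of the summed SPTLC2 and SPTLC3 level in NC and 43.4% ± 1.72 in shPRMT6 (SD, n = 3), and the groups did not overlap. For this and the other shares below, the smallest two-sided p that an exact permutation test of 3 against 3 libraries allows is 0.1, so no share was tested.

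The remaining genes of the step did not pass the test, so that of 9 genes of serine palmitoyltransferase and its regulators 1 rose and 0 fell, where 9.51% and 9.06% of all genes did. SPTSSA, a small activating subunit, differed by 0.12 (SE 0.0608, adjusted p = 0.217). Of the ORMDL proteins, which restrain the enzyme, ORMDL1 was 64.7, 64.0 and 63.5 CPM in NC and 37.1, 39.7 and 70.2 CPM in shPRMT6. Its shPRMT6 replicate 3 stood above all NC libraries while the other two stood far below, and without that library the difference passed the test (log2 fold change -0.74, adjusted p = 0.00929) where with it the difference did not (-0.39, adjusted p = 0.318). ORMDL2 and ORMDL3 differed by -0.23 and -0.098, with groups that overlapped. Exons of ORMDL2 share 36.9% of their 75-base stretches with DNAJC14 and AC023055.1 together, both on the opposite strand. Whether strand was used in counting is not given in the sources used here.

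Of the ceramide synthases, CERS6 was the member that fell. This enzyme, known for joining shorter fatty acids such as palmitate, is on chromosome 2 at 168455862 to 168775137, plus strand. CERS6 was 78.8, 97.6 and 87.5 CPM in NC and 62.9, 64.5 and 65.7 CPM in shPRMT6. The shPRMT6 libraries lay close together below the whole NC range, and 73.2% of the NC level was left (log2 fold change -0.45, SE 0.0881, adjusted p = 0.0164). Leaving out libraries gave -0.53 to -0.37, and the call was lost without NC replicate 3 and without each of the shPRMT6 replicates 1, 2 and 3. CERS6-AS1, a gene on the opposite strand that shares 40.5% of the 75-base stretches of CERS6, was at most 0.0641 CPM in any library.

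CERS2, the synthase known for very long fatty acids, was 254.5, 227.1 and 237.7 CPM in NC and 231.1, 235.5 and 227.0 CPM in shPRMT6. The groups overlapped almost fully (log2 fold change -0.052, SE 0.0603, adjusted p = 0.607). Its exons overlap SETDB1 on the other strand, which was 27.01 ± 1.39 CPM in NC and 26.98 ± 1.08 CPM in shPRMT6 (SD, n = 3). CERS5, a synthase that like CERS6 is known for palmitate, was 31.3, 35.4 and 46.3 CPM in NC and 45.4, 20.3 and 31.7 CPM in shPRMT6. Its libraries spread widely within both groups, and its difference of -0.21 (SE 0.295, adjusted p = 0.675) turned to 0.034 without shPRMT6 replicate 2.

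In length-scaled terms CERS2 was the leading synthase in both groups. The CERS6 share of the summed FPKM of CERS2, CERS5 and CERS6 was 18.4% ± 2.32 in NC and 14.7% ± 0.625 in shPRMT6 (SD, n = 3), without overlap. The CERS2 share, 73.7% ± 3.12 against 77.9% ± 2.31, and the CERS5 share, 7.92% ± 1.59 against 7.44% ± 2.73, overlapped between the groups. CERS1, CERS3 and CERS4 were too low to be tested. DEGS1, the desaturase that completes ceramide, was 201, 101 and 104 CPM in NC and 103, 193 and 98.4 CPM in shPRMT6. NC replicate 1 and shPRMT6 replicate 2 were the high libraries, 1 in each group, and the difference between groups was -0.042 (SE 0.363, adjusted p = 0.951). Of 9 genes of this step 4 were tested, of which 0 rose and 1 fell (9.51% and 9.06% of all genes).

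The hairpins against PRMT6 were read against the 3' UTRs of the members, since a hairpin's antisense strand can pair with other RNAs through bases 2 to 8. The antisense strands of the listed hairpins follow, with those bases in capitals.
shPRMT6 #1: aTAAGGCAtctcaaactgggc
shPRMT6 #2: aAGATGCTcagaatgccggtg
shPRMT6 #3: aTCTCTCCtgaaacgtccgtg
UGCG held a site for none of the 3. The site of hairpin #2, AGCATCT, occurred in the 3' UTR of 14.9% of 19038 genes, and among the members in CERS6, SPTLC2 and CERS2. These stretches are from GENCODE 29 transcripts on GRCh38, read on the strand of the gene with the site in capitals, at chr2:168774934-168774962 (plus), chr14:77510268-77510296 (minus) and chr1:150963754-150963782 (minus).
CERS6: ttcagtgcttgAGCATCTctgtcagaaat
SPTLC2: tagtcactgtcAGCATCTgagaactttaa
CERS2: tgggataatccAGCATCTagaggtgggga
Of these genes CERS6 fell, while SPTLC2 and CERS2 did not pass the test and stood at 115% and 96.4% of NC. The site of hairpin #1, TGCCTTA, was found in 13.7% of genes and in the members CERS2 and SPHK1. The site of hairpin #3, GGAGAGA, was found in 18.9% of genes and in SPTLC2 and B4GALT5. The sites' part in the levels was not tested.

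Ceramide is carried from the endoplasmic reticulum to the Golgi in part by CERT1, which was 27.3, 43.4 and 37.4 CPM in NC and 32.5, 41.3 and 44.6 CPM in shPRMT6. The groups overlapped (log2 fold change 0.13, adjusted p = 0.697). Of the 4 transfer genes 0 passed the test, where 9.51% of all genes rose and 9.06% fell. At the sphingomyelin branch, which draws on the same ceramide as UGCG, 2 of 7 genes rose and 0 fell, beside 9.51% and 9.06% of all genes. SGMS2, the sphingomyelin synthase also found at the plasma membrane, was 24.8, 28.2 and 24.3 CPM in NC and 45.6, 46.0 and 46.2 CPM in shPRMT6. It rose 1.78-fold with no overlap (log2 fold change 0.83, SE 0.0833, adjusted p = 0.00187).

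SMPD1, the lysosomal sphingomyelinase that returns ceramide, was 56.0, 36.4 and 40.7 CPM in NC and 76.0, 84.2 and 94.3 CPM in shPRMT6. All shPRMT6 libraries were above the NC libraries (0.94, SE 0.173, adjusted p = 0.0135), and the call was lost without NC replicate 3 and without shPRMT6 replicate 3. SGMS1, the Golgi sphingomyelin synthase, was 46.8, 41.7 and 28.5 CPM in NC and 41.6, 50.2 and 52.4 CPM in shPRMT6, with overlap between groups (0.30, SE 0.191, adjusted p = 0.332). SGMS2 made up 36.3% ± 5.45 of the FPKM of both synthases in NC and 44.7% ± 2.87 in shPRMT6 (SD, n = 3), and the nearest libraries of the groups were at 41.8% and 42.6%. The FPKM of UGCG was 3.10 ± 0.512 times that of both synthases together in NC and 0.617 ± 0.0300 times in shPRMT6 (SD, n = 3). UGCG thus stood above the summed synthases in every NC library and below them in every shPRMT6 library, a ratio to which the chosen fall of UGCG contributes.

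**Figure D2:**
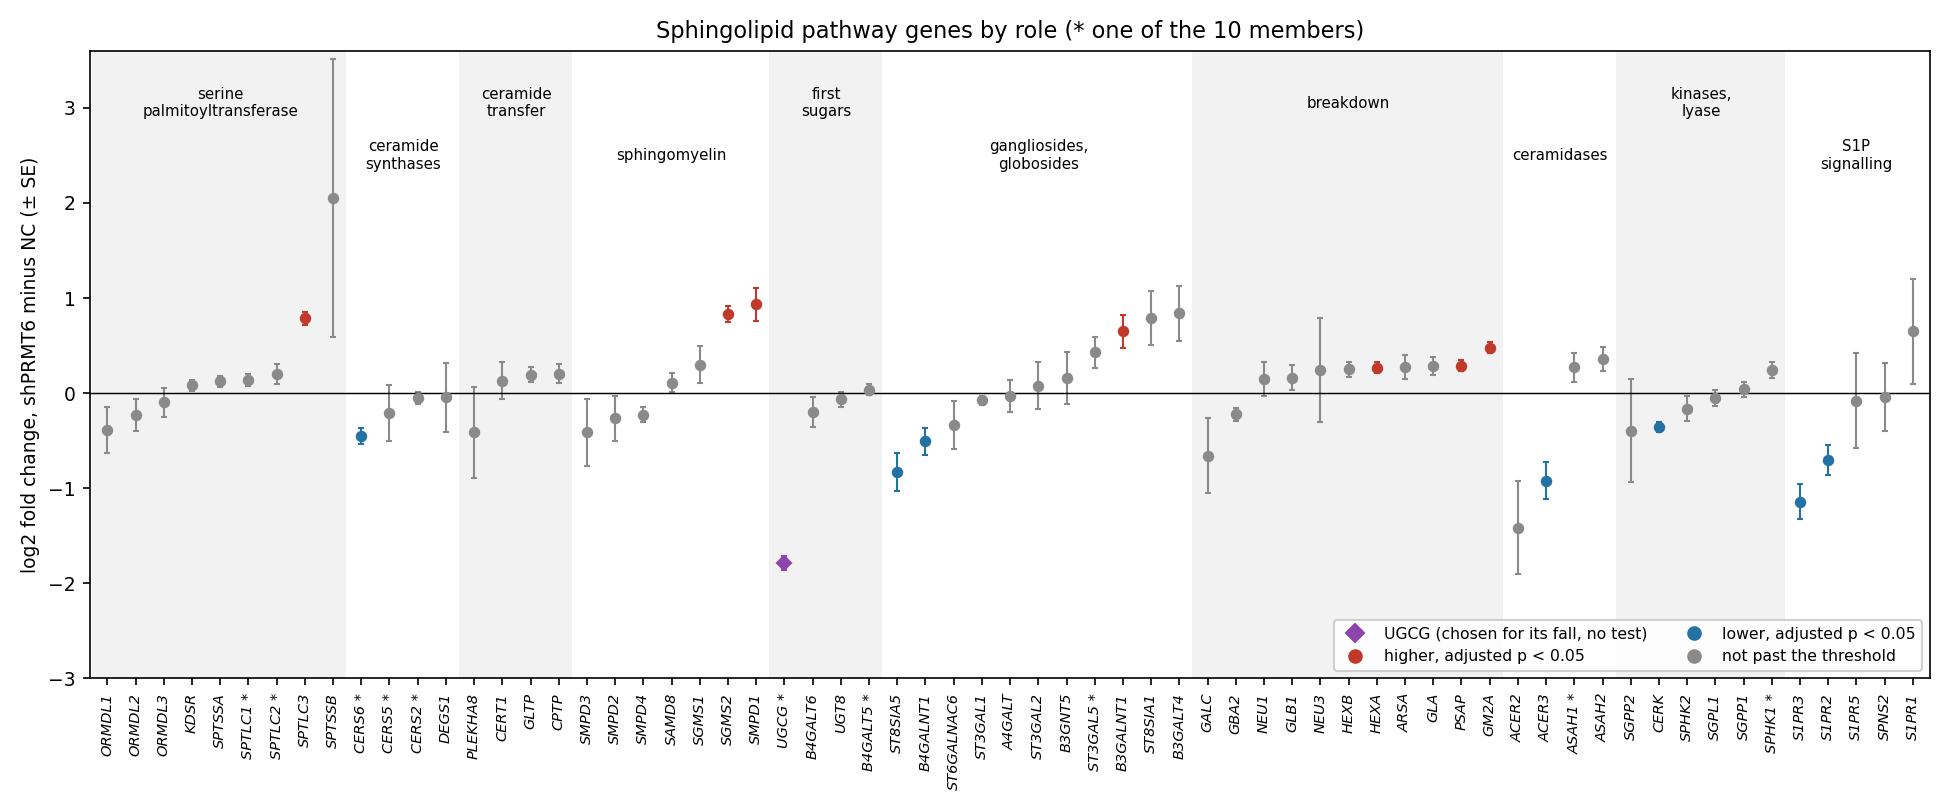
Log2 fold change of shPRMT6 minus NC (± SE derived from edgeR's F statistic, n = 3 per group) for tested genes of sphingolipid metabolism, grouped by role, with an asterisk at each of the 10 members. UGCG at -1.79 lies below every other gene, red and blue points passed an adjusted p under 0.05, and the long bar of SPTSSB belongs to a gene at no more than 0.682 CPM in any library.

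After glucosylceramide, B4GALT5 adds galactose to give lactosylceramide. B4GALT5 was 158.2, 170.8 and 167.6 CPM in NC and 171.6, 162.4 and 175.3 CPM in shPRMT6. The groups overlapped, and the difference was 0.037 on the log2 scale (SE 0.0596, adjusted p = 0.725). B4GALT6, which does the same reaction, differed by -0.20 (SE 0.158, adjusted p = 0.429), and B4GALT5 held 93.9% ± 0.569 of the FPKM of both in NC and 94.8% ± 0.589 in shPRMT6 (SD, n = 3). The FPKM of UGCG was 0.820 ± 0.0423 times that of B4GALT5 in NC and 0.232 ± 0.0228 times in shPRMT6 (SD, n = 3). None of the 3 genes of the first sugar steps other than UGCG passed the test, where 9.51% of all genes rose and 9.06% fell.

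ST3GAL5 adds the first sialic acid, which makes the ganglioside GM3. Its level was low, at 1.86, 1.85 and 1.78 CPM in NC and 2.42, 2.55 and 2.42 CPM in shPRMT6, from 104 to 164 counts a library. Every shPRMT6 library was above every NC library, 1.35-fold in the mean, but the difference did not pass the test (log2 fold change 0.43, SE 0.160, adjusted p = 0.118). Of the genes that follow it, ST8SIA1, which makes GD3, was 1.84, 1.71 and 0.961 CPM in NC and 2.94, 2.40 and 2.45 CPM in shPRMT6 (0.79, SE 0.283, adjusted p = 0.106). B4GALNT1, which opens the branch to GM2 and GD2, was 11.03, 12.8 and 13.3 CPM in NC and 10.1, 7.98 and 8.09 CPM in shPRMT6. B4GALNT1 fell just past the threshold (-0.51, SE 0.139, adjusted p = 0.0496) and lost the call in 11 of 16 alternatives, among them leaving out NC replicates 1, 2 or 3 or shPRMT6 replicates 2 or 3.

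Among 14 genes of ganglioside, globoside and lacto-series synthesis, 11 were tested, 1 rose and 2 fell, beside 9.51% and 9.06% of all genes. Besides B4GALNT1, ST8SIA5, a sialyltransferase of complex gangliosides, fell from 5.51 ± 0.731 to 3.10 ± 0.679 CPM (SD, n = 3, log2 fold change -0.83, adjusted p = 0.0351). B3GALNT1, the globoside synthase, rose from 5.79 ± 0.779 to 9.08 ± 1.45 CPM (SD, n = 3, 0.65, adjusted p = 0.0438). Both calls were lost without NC replicates 1, 2 or 3 and without shPRMT6 replicate 3, that of ST8SIA5 also without shPRMT6 replicate 2 and that of B3GALNT1 without shPRMT6 replicate 1. ST3GAL5 was the lowest of the 10 members in both groups on the FPKM scale, at 0.0921 ± 0.00256 in NC and 0.125 ± 0.00311 in shPRMT6 (SD, n = 3).

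GBA2, a glucosidase outside the lysosome that undoes the step of UGCG, was 71.6, 65.9 and 75.5 CPM in NC and 62.1, 58.3 and 61.9 CPM in shPRMT6. Its groups did not overlap, but the difference did not pass the test (-0.22, SE 0.0734, adjusted p = 0.0822).

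Of 12 genes of glycosphingolipid breakdown, 4 rose and 0 fell, where 9.51% and 9.06% of all genes did, and the median log2 fold change was 0.26. The difference from other genes or roles was not tested. GM2A, the activator protein for GM2 hydrolysis, rose from 57.1 ± 1.74 to 79.6 ± 1.90 CPM (SD, n = 3, 0.48, SE 0.0592, adjusted p = 0.00355). PSAP, the precursor of the saposins that help lysosomal hydrolases reach their lipids, rose from 1186 ± 78.0 to 1449 ± 21.9 CPM (SD, n = 3, 0.29, adjusted p = 0.0195). HEXA, a subunit of the hexosaminidase that acts on GM2, rose from 84.7 ± 3.46 to 102 ± 1.31 CPM (SD, n = 3, 0.27, adjusted p = 0.0229). The calls of PSAP and HEXA were lost without NC replicate 3 and without each of shPRMT6 replicates 1, 2 and 3, while that of GM2A was kept in all 16 alternatives.

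ASAH1, the acid ceramidase of the lysosome, was 62.1, 58.1 and 51.7 CPM in NC and 84.9, 65.5 and 57.0 CPM in shPRMT6. The gene is on chromosome 8 at 18055992 to 18084998, minus strand. Its shPRMT6 replicate 3 fell inside the NC range, and the difference of 0.27 (SE 0.155) did not pass the test (adjusted p = 0.282). Without shPRMT6 replicate 1, the highest library, the difference was 0.096. ACER3, an alkaline ceramidase, was 12.6, 12.97 and 15.5 CPM in NC and 9.0, 5.51 and 7.16 CPM in shPRMT6. ACER3 fell (-0.92, SE 0.197, adjusted p = 0.0225), a call lost without NC replicate 3 and without shPRMT6 replicates 2 or 3. It was the 1 of 4 tested ceramidases past the test, where 9.51% of all genes rose and 9.06% fell.

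SPHK1, a kinase that makes sphingosine 1-phosphate, was 54.6, 47.2 and 56.5 CPM in NC and 60.9, 65.2 and 61.4 CPM in shPRMT6. All shPRMT6 libraries were above all NC libraries, 1.18-fold in the mean. The difference did not pass edgeR's test (log2 fold change 0.24, SE 0.0863, adjusted p = 0.102) and passed that of DESeq2 (adjusted p = 0.0208). SPHK2, the other kinase, differed by -0.16 (SE 0.132, adjusted p = 0.452), and SPHK1 made up 88.0% ± 1.33 of the FPKM of both in NC and 90.7% ± 0.534 in shPRMT6 (SD, n = 3), without overlap. SGPL1, the lyase that ends the pathway, differed by -0.052 (SE 0.0826, adjusted p = 0.715).

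CERK, which phosphorylates ceramide, was 109.7, 109.4 and 113.2 CPM in NC and 87.1, 84.5 and 87.7 CPM in shPRMT6. CERK fell with little spread (-0.36, SE 0.0535, adjusted p = 0.00661) and kept its call in all 16 alternatives. Of the receptors of sphingosine 1-phosphate, S1PR3 was 4.77, 5.68 and 4.63 CPM in NC and 2.29, 1.90 and 2.64 CPM in shPRMT6. S1PR3 fell (-1.14, SE 0.185, adjusted p = 0.00858), as did S1PR2, from 4.45 ± 0.367 to 2.73 ± 0.314 CPM (SD, n = 3, -0.70, adjusted p = 0.0276). The call of S1PR2 was lost without NC replicates 2 or 3 and without shPRMT6 replicates 1, 2 or 3. Neither receptor overlapped between groups.

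The pathway list from which these neighbours come holds 68 genes besides the 10 members. Of these, 56 passed the filter on low counts, 8 rose, 6 fell and 42 did not pass the test, beside the 9.51% and 9.06% of all genes tested. The 12 genes not tested had at most 12 counts in any library. The median log2 fold change of the 56 genes was 0.060, and groups did not overlap for 17 that were higher and 10 that were lower, beside 20.3% and 19.9% of all genes. At the threshold of the methods, read as an absolute log2 fold change above 1 with an unadjusted p under 0.05, 0 genes of the pathway other than UGCG were higher and 2 (S1PR3 and ACER2) were lower, where 3.29% and 2.63% of all genes were. ACER2, an alkaline ceramidase of the Golgi, was at most 1.47 CPM in any library.

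On the length-scaled FPKM scale, UGCG was the third of the 10 members in NC, at 24.2 ± 0.227 (SD, n = 3). CERS2 at 43.4 ± 2.26 and B4GALT5 at 29.5 ± 1.38 stood above it, without overlap. SPTLC1 (10.8), CERS6 (10.8) and SPHK1 (10.1) followed, with overlap between SPTLC1 and CERS6 and between CERS6 and SPHK1, and then SPTLC2 (7.82), CERS5 (4.67), ASAH1 (3.13) and ST3GAL5. In shPRMT6, UGCG was the seventh, at 7.04 ± 0.445, below CERS6 at 7.95 ± 0.179 and above CERS5 at 4.05 ± 1.57 (SD, n = 3). CERS2 (42.1) and B4GALT5 (30.4) again led, followed by SPTLC1 (12.0) and SPHK1 (12.0), which overlapped, and SPTLC2 (9.05). CERS5 and ASAH1 (3.79) overlapped, and ST3GAL5 was again the lowest. The order of the members thus changed mainly by the place of UGCG and by CERS6, which went from level with SPTLC1 to below SPTLC2. The order within a group depends on the length used for each gene. In NC, ASAH1 was above SPHK1 in CPM (57.3 against 52.8) but below SPHK1 in FPKM (3.13 against 10.1). The merged exons of ASAH1 cover 15378 bases in GENCODE 29, and those of SPHK1 cover 4416.

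**Figure D3:**
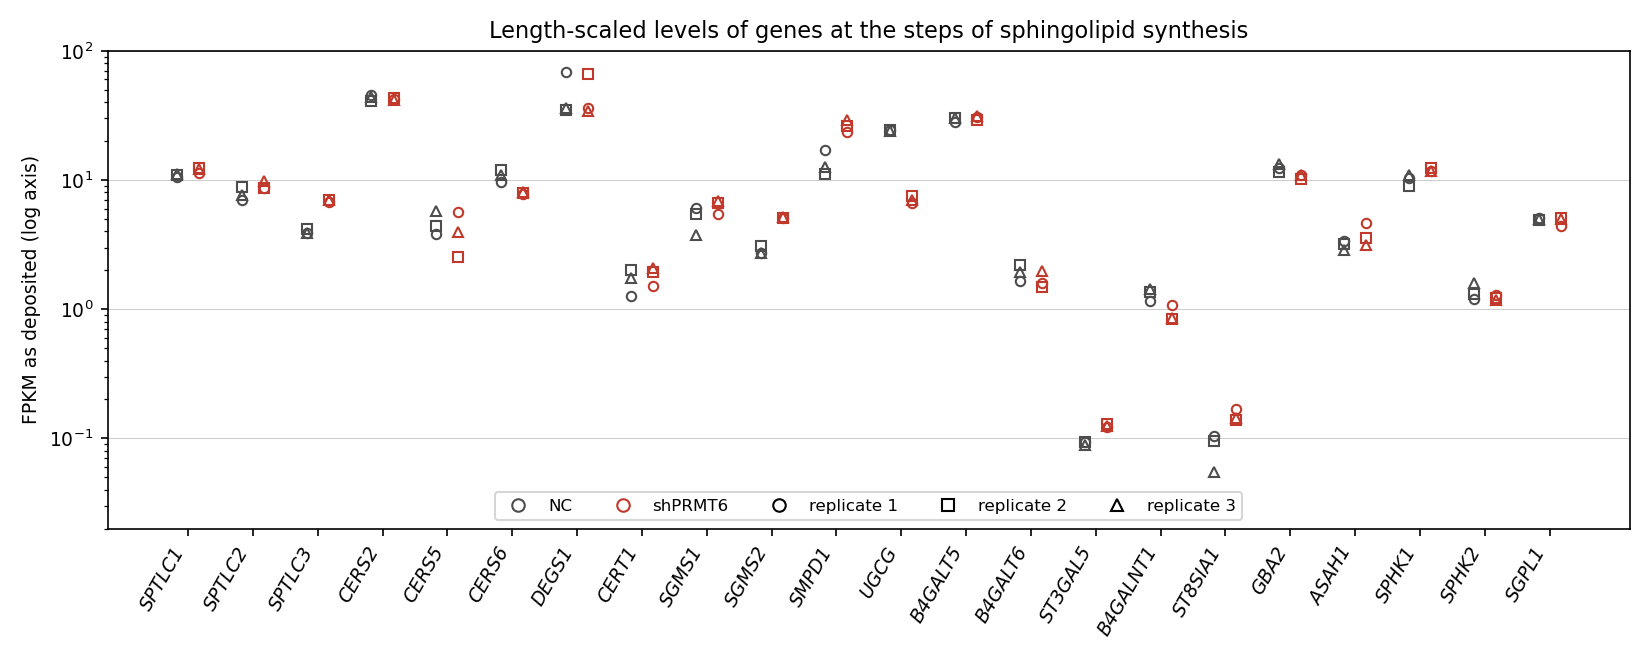
Deposited FPKM (log axis) of genes along sphingolipid synthesis in the 3 NC (grey) and 3 shPRMT6 (red) libraries, with a symbol for each replicate. UGCG goes from a level near B4GALT5 (24.2 and 29.5 FPKM in NC) to one near CERS6 (7.04 and 7.95 FPKM in shPRMT6), and DEGS1 shows 1 high library in each group.

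By the distance between log2 CPM values centred on each gene's mean over the 6 libraries, the 5 of 9527 genes with a pattern most like that of UGCG were SDC4, FAM234B, MKNK2, SERPINB2 and PDIA6. SDC4, a heparan sulfate proteoglycan of the cell surface, was the nearest at 0.238, with a log2 fold change of -1.67. FAM234B (0.299), MKNK2 (0.330), SERPINB2 (0.332) and PDIA6 (0.338) followed, with log2 fold changes of -1.61, -1.58, -1.57 and -1.54. None of them is a gene of the pathway list, and since UGCG was chosen for its fall, genes near it were bound to be lower as well.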

How the data were processed

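The RNA of U87 cells in 3 NC and 3 shPRMT6 libraries was compared, with groups from the labels. The authors deposited read counts per gene, not normalized, and FPKM values, with 0.0001 listed for genes that have no counts. Processing notes in the labels name HISAT2, HTSeq 0.13.5 and GRCh38, with no role or order. The annotation release and the use of strand are not given in the sources used here. The deposited counts summed to 56388161 to 75887696 per library. Low counts piled up at 4 (1240 to 1399 genes a library, beside 398 to 421 at 3 and 223 to 269 at 5), so no counting intervals were given.

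Tests on counts used edgeR 4.0.16 (TMM scaling, quasi-likelihood, its filter on low counts, Benjamini-Hochberg adjustment over 18106 genes, no block) in R 4.3.3. The SE of an edgeR log2 fold change was taken as the absolute log2 fold change divided by the square root of the F statistic of the quasi-likelihood test. CPM values are TMM scaled, and TMM factors ran from 0.992 to 1.01. Differences between replicates exceeded counting error (chi-square per degree of freedom 53.0 to 86.3), so no library was a duplicate. Library numbers were not read as pairs of samples. The weak correlations between libraries of the same number, with 3 libraries per group, cannot show that these were prepared apart. The programs were tested on simulated data. Alternatives used DESeq2 1.42.0 and limma 3.58.1 on log2(FPKM + 1) and log2(FPKM + 0.1). Symbols were matched for 42020 of 60612 identifiers, and 58394 were in GENCODE 29. Promoters came from RefSeq, transcripts and gene positions from GENCODE 29 on GRCh38, and hairpins from the study's list.

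Members and pathway lists were chosen with earlier results of these data known. Named genes are the members, PRMT6, pathway genes with an adjusted p under 0.05, the genes at branch points, and the 5 genes nearest UGCG. ACER2, SPTSSB, CERS6-AS1 and SETDB1 were named after values were seen. The values of 2 genes are not reported here, of which the pathway and role counts include 1.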

Additional observations from a re-analysis of the deposited data

How the results depend on the processing

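Of 548 values of named genes under the alternatives, 473 kept their direction and side of the threshold, 61 lost the call, 7 gained it and 7 reversed. The log2 fold change of UGCG was -1.65 by limma on log2(FPKM + 1), with and without a filter, and -1.83 to -1.74 with a library left out. PRMT6 was no longer past the threshold with a replicate block (-0.88) or by limma on log2(FPKM + 1) without a filter (-0.47). With the filter limma gave the same -0.47 and PRMT6 kept its call (adjusted p = 0.0186), and on log2(FPKM + 0.1) the value was -0.80. PRMT6 ran from -1.0 to -0.73 with a library left out. Members other than UGCG that rose numbered 2 by DESeq2 and 1 (ST3GAL5) by limma without a filter, which called 0 that fell. That ST3GAL5 call was at a log2 fold change of only 0.043 (SE 0.0034) on log2(FPKM + 1). Its mean FPKM was 0.0921 in NC and 0.125 in shPRMT6. Leaving out a library gave 0 to 1 that fell. Other pathway genes that rose numbered 14 by DESeq2, 5 with the replicate block, 4 by limma without a filter and 4 to 8 with a library left out. Those that fell numbered 9 by DESeq2, 3 with at least 1 count in any library, 2 with the replicate block, 2 by limma with either pseudocount and a filter, 1 without a filter and 2 to 5 with a library left out. Limma with a filter tested 41 of these genes, those with a mean FPKM of at least 1, against 56 in the main fit. At the threshold of the methods, 0 fell by limma. S1PR3 and ACER2 lay below that filter, so the filtered fits could not call them. In the unfiltered fit on log2(FPKM + 1) S1PR3 was at -0.20, with a mean FPKM of 0.308 in NC and 0.140 in shPRMT6. At the same threshold, leaving out a library gave 0 to 2 higher and 1 to 5 lower. Among the 14 alternatives that tested S1PR3, it lost its call only by limma without a filter (adjusted p = 0.0668). With a library left out, 5 genes not past the test reversed. Without NC replicate 1 these were CERT1 (range of values -0.036 to 0.29), ORMDL3 (-0.23 to 0.019) and DEGS1 (-0.42 to 0.35). DEGS1 also reversed without shPRMT6 replicate 1 (0.10) or 3 (0.13), SGPL1 without shPRMT6 replicate 1 (-0.097 to 0.015) and CERS5 without shPRMT6 replicate 2 (-0.53 to 0.034). The cause of these changes was not tested. Over all genes, 1721 rose and 1641 fell, 2940 and 2842 by DESeq2, 950 and 908 with the replicate block, 584 and 489 by limma without a filter, and as few as 898 and 857 with a library left out (shPRMT6 replicate 2). Libraries of the same number did not deviate together (correlations 0.0018, -0.045 and -0.018 over 9527 genes), so the numbers were not read as pairs. Counts divided by 4 and rounded, an alternative chosen after seeing the data, gave 8 pathway genes that rose, 6 that fell and 1 member that fell.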

Other observations

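A few pathway genes had 1 library far from the other 5, whatever its group, and are given as values. PLEKHA8, a glycolipid transfer protein of the Golgi, was 7.12 CPM in shPRMT6 replicate 2 and 25.6 to 32.0 CPM in the other 5 libraries. NEU3, a sialidase that acts on gangliosides at the plasma membrane, was 1.06 CPM in NC replicate 3 and 4.24 to 5.68 CPM in the others. B3GNT5, which starts the lacto-series, was 27.2 CPM in NC replicate 2 and 44.3 to 57.7 CPM in the others. ST3GAL2, a sialyltransferase of gangliosides, is listed though its other libraries also spread widely. It was 59.1 CPM in NC replicate 3 and 30.8 to 47.0 CPM in the others. These genes were chosen after their values were seen, none passed the test, and the source of the single libraries was not tested.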
